A study of Mus musculus with 42 samples.

Results

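The genes described here are 9 transcription factors of the secretory and goblet lineage of the intestine, Atoh1, Spdef, Gfi1, Klf4, Creb3l1, Foxa1, Foxa2, Foxa3 and Xbp1, chosen by symbol for their known roles. They are 9 of the 20449 genes listed in 9 tables of bulk RNA-seq from mouse colon, and all 9 passed the filter on low values in each table. The data are 42 libraries in 14 groups, from 2 colonies of C57/BL6 mice aged at least 8 weeks. In the first colony, Mtg16-null mice were compared with their wild-type (WT) littermates, and in the second, mice homozygous for the P209T allele of Mtg16 (T/T) were compared with their own WT littermates. Both alleles are present in the whole animal. MTG16, encoded by Cbfa2t3, is a transcriptional corepressor, and the study uses the proline-to-threonine substitution because it weakens binding of MTG16 to the E proteins E2A and HEB.

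Crypts freed with EDTA from the proximal colon (the 5 cm next to the cecum) were profiled at baseline in 2 WT and 2 Mtg16-null libraries of the first colony, and in 2 WT and 2 T/T libraries of the second. Crypts from the distal colon (the 5 cm next to the anus) were profiled at baseline in 4 WT, 4 Mtg16-null, 3 WT and 4 T/T libraries in the same order. Distal crypts were also taken after injury and repair, with 2% dextran sulfate sodium (DSS) in the drinking water for 5 days and plain water for 4 days, in 3 WT, 4 Mtg16-null, 3 WT and 3 T/T libraries. Whole distal tumors gave 3 WT and 3 T/T libraries, from mice given 10 mg/kg azoxymethane (AOM) and 3 cycles of 3% DSS for 4 days and water for 16 days. The crypts are a mixture of all epithelial cell types, and the tumors also hold stroma. In such bulk samples fewer cells of a type and less RNA per cell cannot be told apart. The labels describe the libraries of a group as replicates and do not say that each came from a different mouse, so the p-values below measure the spread between libraries.

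In the colon, stem cells at the crypt base give rise to absorptive colonocytes and to secretory cells, which are mainly mucus-producing goblet cells with fewer enteroendocrine and tuft cells. Notch signaling between neighbors holds the basic helix-loop-helix factor ATOH1 down in absorptive progenitors, and ATOH1, which binds E-box DNA as a dimer with an E protein, is required for the secretory fate. SPDEF acts after ATOH1 in the terminal differentiation of goblet cells, GFI1 steers secretory progenitors away from the enteroendocrine fate, and KLF4 is needed for goblet cells to mature in the colon. The forkhead factors FOXA1, FOXA2 and FOXA3 open chromatin in endoderm-derived epithelium. XBP1, a factor of the unfolded protein response, and CREB3L1, which is held in the endoplasmic reticulum membrane until it is cleaved, serve the secretory machinery.

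The sequences just upstream of 4 of these genes are shown because these are the genes the results below turn on most, and each was searched for the E box, the CANNTG motif that E proteins and ATOH1 bind. Each is the 250 bases before a RefSeq transcription start in GRCm38.p6, written 5′ to 3′ on the gene's own strand. Any E box is in capitals. The motif is its own reverse complement, so both strands were searched at once.
Atoh1, chr6:64728875-64729124, plus strand: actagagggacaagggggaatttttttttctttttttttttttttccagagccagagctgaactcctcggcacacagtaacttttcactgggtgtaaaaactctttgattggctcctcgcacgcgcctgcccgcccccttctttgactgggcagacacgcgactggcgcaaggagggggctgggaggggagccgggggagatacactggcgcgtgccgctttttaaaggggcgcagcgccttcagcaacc
Spdef, chr17:27728952-27729201, minus strand: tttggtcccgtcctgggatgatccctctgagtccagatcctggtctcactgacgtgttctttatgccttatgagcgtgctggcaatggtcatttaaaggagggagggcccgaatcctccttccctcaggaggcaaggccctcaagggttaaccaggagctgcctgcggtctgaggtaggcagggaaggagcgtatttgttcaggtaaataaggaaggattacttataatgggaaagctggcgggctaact
Foxa2, chr2:148046970-148047219, minus strand: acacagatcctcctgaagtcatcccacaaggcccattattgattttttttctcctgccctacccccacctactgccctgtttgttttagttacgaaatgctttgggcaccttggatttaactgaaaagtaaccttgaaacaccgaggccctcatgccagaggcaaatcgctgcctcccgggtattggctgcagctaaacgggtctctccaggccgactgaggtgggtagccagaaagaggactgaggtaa
Xbp1, chr11:5520391-5520640, plus strand: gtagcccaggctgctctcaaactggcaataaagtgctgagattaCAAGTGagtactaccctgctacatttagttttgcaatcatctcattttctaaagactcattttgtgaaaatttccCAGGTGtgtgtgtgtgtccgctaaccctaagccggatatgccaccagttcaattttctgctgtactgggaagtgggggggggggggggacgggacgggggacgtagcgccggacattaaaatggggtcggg
The windows shown of Atoh1, Spdef and Foxa2 held no CANNTG and that of Xbp1 held 2. Foxa2 has 2 further starts, and of their windows the one at chr2:148045465-148045714 held 1 and the other held 0. RefSeq windows were found for 8 of the 9 genes, 11 windows in all because some genes have several starts, and 7 of the 11 held an E box, against 66.2% of the 32851 such windows of all genes. Creb3l1 was not among them. A match describes the letters only, and E boxes in more distant regulatory sequence were not searched.

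All 9 genes are protein coding. By the mouse annotation (GENCODE vM21, GRCm38), Atoh1 has a single exon on chromosome 6 from 64729125 to 64731245, Spdef lies on chromosome 17 from 27714352 to 27728955, and Foxa2 on chromosome 2 from 148042877 to 148046969. Creb3l1 lies on the same chromosome from 91982328 to 92024502, Klf4 on chromosome 4 from 55527143 to 55532466, and Xbp1 on chromosome 11 from 5520659 to 5525893. Foxa1 lies on chromosome 12 from 57540628 to 57546916, Foxa3 on chromosome 7 from 19013284 to 19023538, and Gfi1 on chromosome 5 from 107716657 to 107726036. Gfi1 shares 101 exonic bases with A430072P03Rik on the opposite strand, and since the library kit did not mark strand, reads from the shared bases cannot be told apart.

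The libraries were checked before any comparison. Depth, recovered as whole reads for 38 of the 42 libraries, ran from 32231389 to 74661922 reads, and the totals of the 4 proximal mutant libraries over their smallest steps ran from 41755780 to 49581496. Cbfa2t3, the targeted gene, was lower in the Mtg16-null groups without reaching 0. After DSS it stood at 427, 594, 595 and 486 normalized counts in Mtg16-null against 2020, 1845 and 2519 in WT crypts (log2 fold change −2.02, adjusted p = 0.00292 by limma). The baseline log2 fold changes were −1.49 in proximal and −1.11 in distal crypts, neither past the threshold (adjusted p = 0.445 and 0.303 by limma). The distal groups overlapped, with the highest Mtg16-null library at 1095 and the lowest WT library at 1027 normalized counts. The T/T allele leaves the gene in place, and Cbfa2t3 was 0.90 higher on the log2 scale in distal T/T crypts (adjusted p = 0.253 by limma), with no overlap between groups. One library went against its label. In the library labelled distal Mtg16-null replicate 2, 266 of 282 genes that separate WT distal from WT proximal crypts lay nearer the proximal mean, against 0 to 9 in the other distal baseline libraries and 266 to 281 in the proximal ones. Hoxd13, a homeobox gene of the hindmost gut, was at 0 CPM (normalized counts scaled to the same library total) there, against 74.6 to 149 CPM in the other distal baseline libraries. Results of the 9 genes and of gene lists in the distal Mtg16-null comparison are given below with and without this library. Ranges over several comparisons, the value of Cbfa2t3 and group levels in CPM include it.

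Atoh1 was lower in the mutant crypts of both colonies in each of the 6 genotype comparisons of crypts, and in each of them the mutant and WT libraries did not overlap. The difference passed the threshold in 1, Mtg16-null against WT distal crypts after DSS. The 6 comparisons share no library, but whether proximal and distal libraries came from the same mice is not known here. Values are counts divided by the size factors of each table (normalized counts), and fold changes are differences of log2(normalized count + 1), with adjusted p from limma over all genes tested in a table and a threshold of 0.05.

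After DSS, Atoh1 stood at 2659, 2578, 3063 and 2853 normalized counts in the Mtg16-null libraries and at 6378, 5059 and 7484 in WT. The highest mutant library lay well below the lowest WT library. The means were 2788 ± 217 (SD, n = 4) and 6307 ± 1214 (SD, n = 3), a log2 fold change of −1.16 (SE 0.160, 95% interval −1.52 to −0.80, adjusted p = 0.0165 by limma, exact two-sided permutation p = 0.0286, the smallest 4 against 3 allow). In this comparison 91 genes passed, 0.629% of those tested, and groups did not overlap for 11.4% of genes. Leaving out any of 4 single libraries (Mtg16-null replicate 1, 3 or 4, or WT replicate 3) took the adjusted p for Atoh1 above 0.05, to between 0.0502 and 0.0675 by limma. Same-numbered libraries deviated together here, and with the replicate number as a block the whole comparison held 828 higher and 443 lower genes, with Atoh1 still the single member called (adjusted p = 0.000628 by limma). Myeloid markers moved with the genotype in these libraries: their summed level was 115 to 361 CPM in Mtg16-null and 17.6 to 69.9 CPM in WT crypts, and all 8 of 8 had positive log2 fold changes, 1 of them past the threshold. Epithelial markers overlapped, at 19839 to 25267 CPM in Mtg16-null and 18673 to 23374 CPM in WT. Segment genes moved with the genotype as well: of the 282, 71, 54, 71 and 45 lay nearer the proximal mean in the Mtg16-null libraries against 25, 20 and 15 in WT, and Hoxd13 stood at 14.3 to 54.2 CPM against 58.1 to 68.0 CPM. The part of these in the fall of Atoh1 was not tested.

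At baseline in the distal colon, Atoh1 stood at 2069, 2665, 1730 and 2001 normalized counts in Mtg16-null and 4889, 4290, 2840 and 4606 in WT. The Mtg16-null library nearest to WT, 2665, was replicate 2, the one that went against its label. With it the means were 2116 ± 394 and 4156 ± 911 (SD, n = 4 each), and the log2 fold change of −0.96 did not pass (SE 0.192, adjusted p = 0.126 by limma, exact permutation p = 0.0286). Without it the log2 fold change was −1.08 and passed (adjusted p = 0.0298 by limma). In the proximal colon Atoh1 stood at 2417 and 2402 in Mtg16-null and at 4528 and 5194 in WT, a log2 fold change of −1.01 (SE 0.118, 95% interval −1.29 to −0.73, adjusted p = 0.0774 by limma). With 2 against 2 libraries a permutation test cannot go below 0.333. Plasma cell markers summed to 42.1 to 48.8 CPM in these Mtg16-null libraries against 10.7 to 28.1 CPM in WT, with 4 of 4 tested positive, and absorptive colonocyte markers to 12976 to 13645 against 14555 to 16712 CPM, with 5 of 5 negative. By limma 0 of either list passed, and their part in the Atoh1 value was not tested. Among all genes tested the share that passed was 0.239% in the distal and 0.0645% in the proximal comparison, and groups did not overlap for 3.75% and 35.6% of genes. Without replicate 2 the distal shares were 1.04% and 6.52%, the first being 133 higher and 10 lower genes of 13720.

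**Figure D1:**
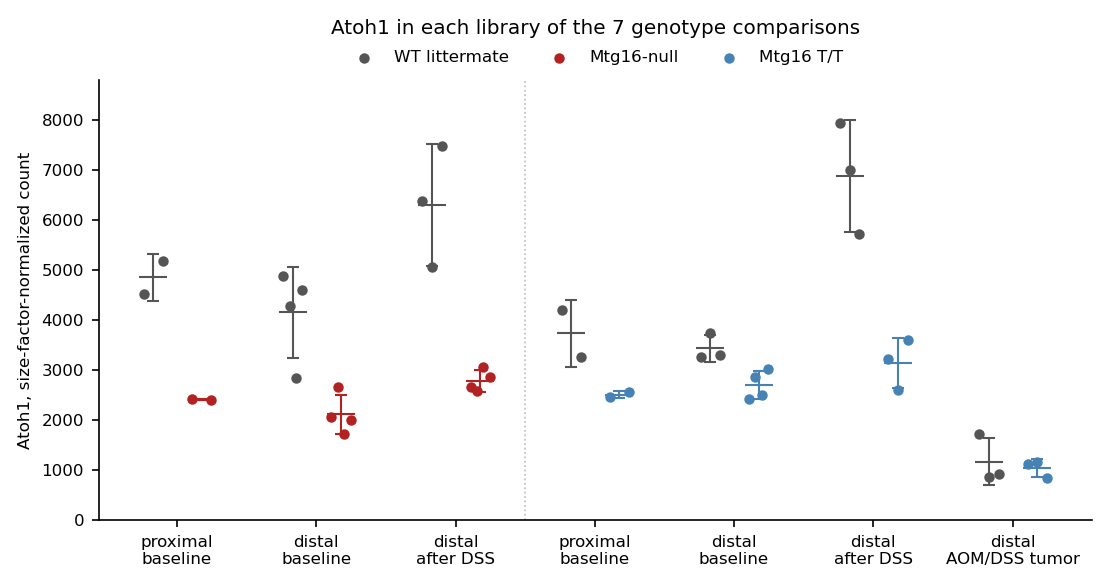
Atoh1 in normalized counts (vertical axis, linear, from 0) in every library of the 6 genotype comparisons of crypts and the tumors; grey points are WT, red Mtg16-null and blue T/T libraries, and bars are the mean ± SD. The mutant points lie below the WT points in each crypt comparison, with after-DSS WT at 5059 to 7938 and mutants at 2578 to 3605, and the groups overlap in the tumors.

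In the T/T colony the log2 fold change of Atoh1 was −0.56 in proximal crypts, −0.35 in distal crypts and −1.13 in distal crypts after DSS. Proximal T/T libraries stood at 2460 and 2555 normalized counts against 4211 and 3256 in WT (adjusted p = 0.215 by limma). Distal T/T libraries stood at 2424, 2864, 2499 and 3021 against 3261, 3746 and 3295 in WT (SE 0.103, adjusted p = 0.863 by limma, exact permutation p = 0.0571). After DSS they stood at 3225, 2608 and 3605 against 7938, 7013 and 5716 in WT (SE 0.203, 95% interval −1.61 to −0.65, adjusted p = 0.172 by limma, exact permutation p = 0.1, the smallest 3 against 3 allow). None of the 3 passed, though every T/T library was below every WT library in each. Every T/T library was below every WT library for 22.9% of genes in the proximal, 3.31% in the distal and 8.02% in the after-DSS comparison, and groups did not overlap in either direction for 45.5%, 7.7% and 13.7%. The genes that passed were 0.232%, 0.0369% and 0% of those tested, in that order. In the last of these, 0 genes passed by limma with 1197 at an unadjusted p under 0.05, 0 passed by edgeR, and DESeq2 called 291, Atoh1 among them (adjusted p = 0.00243 by DESeq2). Myeloid markers moved with the genotype in these libraries too, at a summed 42.7 to 51.5 CPM in T/T and 12.1 to 28.0 CPM in WT crypts after DSS, with 8 of 8 log2 fold changes positive and 0 past the threshold by limma. Plasma cell markers stood at 13.96 to 15.1 against 4.58 to 8.01 CPM, with 4 of 4 tested positive and 0 past the threshold. Of the 282 segment genes, 83, 42 and 74 lay nearer the proximal mean in T/T against 29, 36 and 10 in WT. Epithelial markers stood at 19670 to 27178 CPM in T/T and 23509 to 31012 CPM in WT, with 9 of 10 negative, a median log2 fold change of −0.27 and 0 past the threshold. The part of these in the Atoh1 values was not tested.

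The effects on Atoh1 were compared directly. In distal crypts the log2 effect of Mtg16-null minus that of T/T was −0.61 (adjusted p = 0.958 by limma), and −0.73 without replicate 2 (adjusted p = 0.958 by limma). In proximal crypts it was −0.45 (adjusted p = 0.588 by limma). The baseline minus the after-DSS effect of T/T was 0.78 (adjusted p = 0.312 by limma), and that of Mtg16-null was 0.20, or 0.08 without replicate 2 (adjusted p = 0.999 and 0.979 by limma). None of these differences passed, so a difference between alleles, segments or treatments in how far Atoh1 was lower was not detectable with these libraries. The same held for all 9 genes. Of all genes tested, 0.0149% passed for the segment difference of the Mtg16-null effect, 0.0153% for that of the T/T effect, 0.242% for the allele difference in proximal crypts and 0.0604% for the DSS difference of the T/T effect, and 0% for the others. Without replicate 2, 0 of the 9 passed by limma in the 3 differences that use the distal Mtg16-null comparison, where 6, 2 and 23 genes did for segment, allele and DSS. At an unadjusted p under 0.05 these held 1 (Spdef), 1 (Atoh1) and 0 of the 9, against 3.71%, 2.92% and 6.47% of all genes. With all libraries the 3 held the same counts, against 3.58%, 2.17% and 3.27% of all genes. The segment difference of the T/T effect held 3 (Spdef, Creb3l1, Xbp1) against 4.28%, the proximal allele difference 2 (Atoh1, Spdef) against 7.25%, and the DSS difference of the T/T effect 2 (Atoh1, Klf4) against 9.998%.

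Spdef, the goblet maturation factor, passed in none of the crypt genotype comparisons, and its log2 fold changes had both signs. Its effects were not tested against those of Atoh1. In proximal Mtg16-null crypts it stood at 4434 and 5829 normalized counts against 8955 and 8138 in WT, a log2 fold change of −0.75 (SE 0.154, 95% interval −1.11 to −0.38, adjusted p = 0.298 by limma). Both mutant libraries were below both WT libraries. In distal Mtg16-null crypts Spdef stood at 2974, 6273, 1876 and 2473 against 2668, 2766, 2232 and 3632 in WT. The single high value, 6273, was that of replicate 2, which in CPM stood at 138, within the 86.9 to 191 of the proximal libraries. The distal log2 fold change was 0.13 with it and −0.21 without it, neither past the threshold. After DSS Spdef stood at 7542, 4720, 5272 and 6412 in Mtg16-null against 6153, 4711 and 4173 in WT (0.25, adjusted p = 0.681 by limma) and the groups overlapped. In T/T crypts the log2 fold change was −0.27 in proximal, 0.23 in distal and −0.10 in after-DSS crypts, with adjusted p by limma of 0.473, 0.863 and 0.903. More segment genes lay nearer the proximal mean in the after-DSS mutants than in WT, as given above. Their part in the Spdef values was not tested.

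Gfi1, the zinc-finger repressor downstream of ATOH1, was the least abundant member, and its log2 fold change was negative in all 6 crypt comparisons without passing in any. After DSS it stood at 647, 561 and 569 normalized counts in T/T against 1035, 872 and 650 in WT, a log2 fold change of −0.50 (adjusted p = 0.632 by limma). T/T libraries were all below WT here, with 647 against 650 in the nearest pair. In distal Mtg16-null crypts the libraries stood at 373, 721, 276 and 438 against 697, 618, 418 and 1313 in WT, and they overlapped. The log2 fold change there was −0.71, and −0.97 without replicate 2 (adjusted p = 0.522 by limma). Proximal log2 fold changes were −0.50 in Mtg16-null and −0.47 in T/T crypts.

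Klf4, the most abundant member per length, had its largest genotype log2 fold change in T/T crypts after DSS. It stood at 30961, 29639 and 29157 normalized counts in T/T against 45325, 40204 and 35350 in WT, a log2 fold change of −0.42 (SE 0.149, 95% interval −0.78 to −0.07, adjusted p = 0.478 by limma). All 3 T/T libraries were below all 3 WT libraries. In Mtg16-null crypts after DSS the groups overlapped, with a log2 fold change of −0.25 (adjusted p = 0.724 by limma). At baseline its log2 fold changes ran from −0.19 in distal Mtg16-null (−0.14 without replicate 2) to 0.08 in proximal Mtg16-null crypts.

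Creb3l1 and Xbp1, the factors tied to the endoplasmic reticulum, were lower in proximal T/T crypts without passing the threshold. Creb3l1 stood at 4704 and 4973 normalized counts in T/T against 6616 and 8114 in WT, a log2 fold change of −0.60 (SE 0.114, adjusted p = 0.143 by limma). Xbp1 stood at 8190 and 7734 against 10251 and 9893, a log2 fold change of −0.34 (SE 0.0791, adjusted p = 0.208 by limma). Neither gene's groups overlapped. T cell markers in these T/T libraries were at a summed 146 to 151 against 168 to 220 CPM with 6 of 6 negative, and plasma cell markers, with 4 of 4 tested negative, stood at 12.3 to 26.3 against 18.2 to 38.1 CPM. Absorptive colonocyte markers stood at 14956 to 16816 against 12521 to 13554 CPM, with 4 of 5 positive and no overlap in 5 of 5. By limma 0 of these lists passed, and their part in the values of Creb3l1 and Xbp1 was not tested. In distal T/T crypts the log2 fold changes were 0.06 for Creb3l1 and 0.01 for Xbp1, and the proximal minus distal effect on Creb3l1 was −0.66 (adjusted p = 0.428 by limma). After DSS Creb3l1 had negative log2 fold changes in Mtg16-null (−0.30) and T/T (−0.48) crypts, with overlapping groups. Xbp1 was at 0.003351 in Mtg16-null and −0.14 in T/T crypts after DSS, on the log2 scale.

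Foxa1, Foxa2 and Foxa3 showed no genotype difference past the threshold. Foxa1 had log2 fold changes from −0.12 to 0.04 in the 6 crypt comparisons. Foxa2 in distal Mtg16-null crypts stood at 2037, 798, 1667 and 2491 normalized counts against 2762, 2450, 1895 and 2318 in WT. The low value, 798, was again replicate 2, which in CPM stood at 17.5 against 9.73 to 12.8 in the proximal libraries. The Foxa2 log2 fold change was −0.53 with that library and −0.20 without it (adjusted p = 0.9998 and 0.9996 by limma). Foxa3 ran from −0.26 in T/T crypts after DSS to 0.15 in Mtg16-null crypts after DSS.

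**Figure D2:**
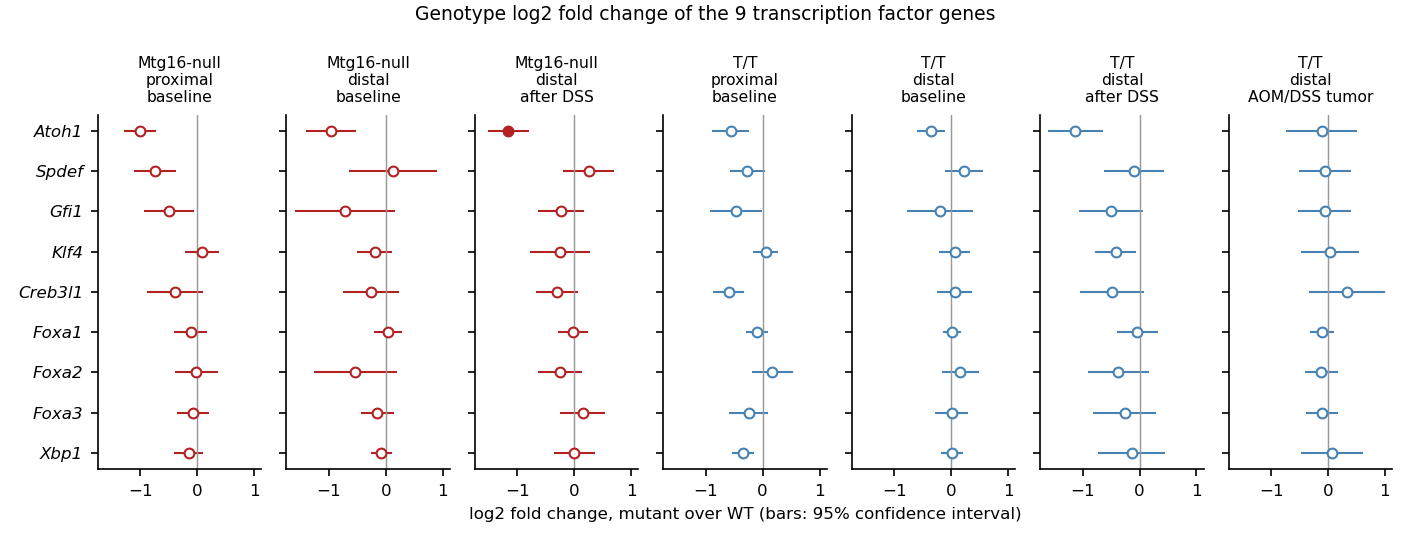
Log2 fold change of each of the 9 genes, mutant over WT littermates (horizontal axis, log2 of normalized count + 1), in the 6 crypt comparisons and the tumors; red is Mtg16-null, blue T/T, bars are 95% intervals and a filled point passed an adjusted p of 0.05. Atoh1 in Mtg16-null crypts after DSS, at −1.16, is the filled point, and the other Atoh1 points in crypts lie between −0.35 and −1.13.

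By limma, then, 1 of the 9 genes passed in Mtg16-null crypts after DSS and 0 passed in each of the other 5 crypt comparisons. At an unadjusted p under 0.05 there were 3 in proximal Mtg16-null crypts (Atoh1, Gfi1, Spdef), 1 in distal Mtg16-null and 1 in distal T/T (Atoh1 in both), 4 in proximal T/T (Atoh1, Creb3l1, Gfi1, Xbp1) and 2 in T/T crypts after DSS (Atoh1, Klf4). The share of all genes at that p was 5.96%, 4.63%, 4.65%, 12% and 8.77% in the same order. In Mtg16-null crypts after DSS there was 1 (Atoh1), where 12.4% of all genes were. Without replicate 2 there were 2 in distal Mtg16-null crypts (Atoh1, Gfi1), where 5.91% of all genes were. Where whole reads could be recovered, edgeR called the same number as limma in each crypt genotype comparison, with 0.615% of all genes in Mtg16-null crypts after DSS, 0.209% in distal Mtg16-null, 0.0369% in distal T/T and 0% in T/T crypts after DSS. DESeq2 called 1 in Mtg16-null crypts after DSS, 1 in distal Mtg16-null crypts and 1 in T/T crypts after DSS, where it called 4.78%, 1.27% and 1.95% of all genes. The median log2 fold change of the 9 was −0.15 in proximal and −0.19 in distal Mtg16-null crypts and −0.23 after DSS, and −0.27, 0.01 and −0.37 in the T/T crypts in the same order. The median over all genes tested lay between −0.01 and 0.03 in these comparisons. Negative signs were 8, 7 and 6 of 9 in the Mtg16-null comparisons and 7, 2 and 9 of 9 in the T/T comparisons. Without replicate 2 the distal Mtg16-null median was −0.20 and 9 of 9 signs were negative. In T/T crypts after DSS, where the members had 9 of 9 negative signs, 9 of 10 epithelial markers were negative too, at the median of −0.27 given above, whose part was not tested. With the trend on transcript length removed from each library, the median of the members there was −0.24, and Spdef and Foxa1 were positive.

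The effector genes of goblet cells that passed moved in both directions with genotype. Of 17 tested goblet effectors (Muc2 is not analysed here), 1 rose and 1 fell in proximal Mtg16-null crypts, where 0.0645% of all genes passed. Tff3, the trefoil peptide secreted with mucus, rose from 20430 ± 2952 to 64042 ± 7361 normalized counts (log2 fold change 1.65, adjusted p = 0.0453 by limma), while Reg4, a secreted lectin, fell from 17598 ± 1779 to 5790 ± 362 (−1.60, adjusted p = 0.0113 by limma). In proximal T/T crypts 2 rose and 0 fell, where 0.232% of all genes passed. Tff3 rose by 0.92 (adjusted p = 0.038 by limma) and Ang4, an antimicrobial ribonuclease, by 1.73 (adjusted p = 0.0436 by limma). In Mtg16-null crypts after DSS Ang4 was the 1 that passed, where 0.629% of all genes did. Ang4 stood there at 5685 ± 1486 against 172 ± 106 normalized counts (log2 fold change 5.17, adjusted p = 0.00113 by limma). In distal Mtg16-null, distal T/T and after-DSS T/T crypts 0 passed. Without replicate 2, where 1.04% of all genes passed, 1 rose and 1 fell in distal Mtg16-null crypts, Tff3 by 0.64 (adjusted p = 0.0445 by limma) and Zg16, a lectin-like protein of goblet cell granules (−1.28, adjusted p = 0.0337 by limma), and the list median was −0.18 in place of −0.08. The list medians ran from −0.37 in T/T crypts after DSS to −0.001646 in proximal Mtg16-null crypts. Negative signs were 9, 12 (13 without replicate 2) and 13 of 17 in proximal, distal and after-DSS Mtg16-null crypts, and 11, 9 and 11 in T/T crypts. Groups did not overlap for 7, 4 and 6 of 17 in the Mtg16-null comparisons, against 35.6%, 3.75% and 11.4% of all genes. In the T/T comparisons they did not for 14, 3 and 10 of 17, against 45.5%, 7.7% and 13.7%.

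Among 14 factors of enteroendocrine and tuft cells, the neighbors of goblet cells in the secretory lineage, 13 or 14 were tested in each crypt comparison and most had positive log2 fold changes in the mutants. Neurod1, an enteroendocrine differentiation factor, rose from 126 ± 7 to 389 ± 81 normalized counts in distal Mtg16-null crypts (log2 fold change 1.59, adjusted p = 0.017 by limma). Neurog3, which starts enteroendocrine differentiation, rose from 107 ± 38 to 328 ± 24 in Mtg16-null crypts after DSS (1.66, adjusted p = 0.0321 by limma). These were the single genes of the list that passed in each, where 0.239% and 0.629% of all genes did. In the other 4 crypt comparisons 0 passed. Without distal Mtg16-null replicate 2, 8 of 13 rose in the distal comparison and 0 fell, where 1.04% of all genes passed. Among them Neurog3 rose from 86.2 ± 20.3 to 481 ± 147 normalized counts (log2 fold change 2.45, adjusted p = 0.00568 by limma) and Neurod1 to 429 ± 15.0 (1.76, adjusted p = 0.000941 by limma). Positive signs were 13 of 14, 11 of 13 and 13 of 13 in proximal, distal and after-DSS Mtg16-null crypts, with medians of 0.58, 1.23 (1.47 without replicate 2, with the same count of signs) and 0.77, and 11 of 14, 12 of 13 and 11 of 13 in T/T crypts, with medians of 0.74, 0.32 and 0.60. Of 20 genes of the endoplasmic reticulum and unfolded protein response, and of the 8 to 10 tested Notch pathway genes, 0 passed by limma in any of the 6 crypt comparisons, nor in the distal Mtg16-null one without replicate 2. In proximal T/T crypts, where Creb3l1 and Xbp1 stood below WT, 19 of 20 genes of the first list were negative, with a median of −0.23, and 11 of 20 had groups that did not overlap, against 45.5% of all genes. In proximal Mtg16-null crypts 10 of 10 Notch genes were positive, with a median of 0.41, and 5 of 10 did not overlap, against 35.6% of all genes.

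Between colon segments Foxa2 and Spdef differed in opposite directions. Distal were compared with proximal WT crypts of both colonies, 7 libraries against 4. Foxa2 stood at 2226 ± 334 normalized counts (SD, n = 7) in distal and 509 ± 50.1 (SD, n = 4) in proximal crypts, 4.34-fold higher (log2 fold change 2.12, 95% interval 1.87 to 2.36, adjusted p = 5.36e-09 by limma, exact permutation p = 0.00303). Spdef stood at 2385 ± 619 in distal and 6624 ± 1630 in proximal crypts, 2.78-fold lower distally (−1.48, 95% interval −1.88 to −1.07, adjusted p = 2.67e-05 by limma, exact permutation p = 0.00303). Neither gene's groups overlapped.

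Klf4 and Creb3l1 were also higher distally, without overlap. Klf4 stood at 32982 ± 3443 against 24636 ± 1288 normalized counts (log2 fold change 0.42, adjusted p = 0.00108 by limma) and Creb3l1 at 12346 ± 1938 against 8604 ± 1318 (0.52, adjusted p = 0.00418 by limma). Foxa1 was slightly lower distally, at 4296 ± 264 against 4895 ± 345 with overlapping groups (−0.19, adjusted p = 0.0296 by limma), and lost its call without any of several single libraries, with 4 to 5 members called over these, where 37.0% to 43.2% of all genes were. Atoh1 did not pass, at 3895 ± 683 against 4197 ± 615 (−0.12, 95% interval −0.41 to 0.18), and neither did Gfi1 (−0.17), Foxa3 (−0.07) or Xbp1 (−0.11). So 5 of 9 passed where 42.1% of all genes did, and groups did not overlap for 4 of 9 where they did not for 30% of all genes. Within the single sequencing request that held both segments, 2 against 2 libraries, 2 of the 9 passed, Foxa2 and Spdef, where 14.5% of all genes did. With request as a covariate 3 did, with Klf4, where 23.04% of all genes did. T cell markers moved with segment too: 6 of 6 were lower distally, and their summed level was 121 to 220 CPM in proximal and 14.02 to 67.2 CPM in distal WT crypts. Absorptive colonocyte markers summed to 12521 to 16712 CPM in proximal and 2006 to 3284 CPM in distal WT crypts, with 3 of 5 past the threshold higher and 2 lower distally. Of 4 tested plasma cell markers 3 passed lower, and of 6 tested myeloid markers 3 passed higher and 1 lower. The part of these markers in the segment differences was not tested.

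**Figure D3:**
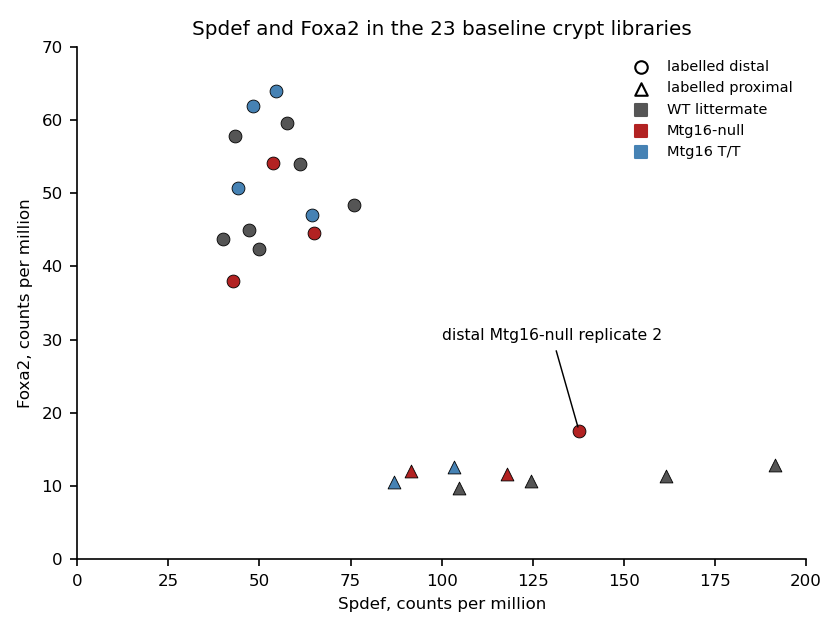
Spdef (horizontal axis) and Foxa2 (vertical axis), each in CPM on a linear axis, in the 23 baseline crypt libraries; circles are distal and triangles proximal, grey WT, red Mtg16-null and blue T/T. Proximal libraries group at 9.73 to 12.8 CPM of Foxa2 and distal ones at higher Foxa2 and lower Spdef, except distal Mtg16-null replicate 2, at 17.5 CPM of Foxa2 and 138 CPM of Spdef.

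Of the genes around these factors, 6 of 17 goblet effectors were higher and 5 lower distally, where 42.1% of all genes passed in either direction. Retnlb, an antimicrobial peptide of goblet cells, stood at 2012 ± 1297 normalized counts in distal and 30023 ± 6580 in proximal crypts (log2 fold change −4.14, adjusted p = 3.92e-06 by limma). Fcgbp (1.45) and Clca1 (1.25), mucus-layer proteins, were higher distally, and Galnt12 (−1.04), a glycosyltransferase of mucin-type sugars, was lower. Of the unfolded protein response list 2 of 20 were higher (Herpud1 0.57, Ern1 0.56) and 4 lower, among them Dnajb9 (−0.36) and Dnajb11 (−0.34). Of the Notch list 2 of 8 were higher, the ligand Dll1 (0.69) and the glycosyltransferase Lfng (0.30). The shares called in both these lists were below that of all genes. Of the enteroendocrine and tuft list 6 of 13 were higher and 3 lower, with Isl1 (0.90) among the first and Spib (−1.01) and Pou2f3 (−0.98), a tuft cell factor, among the second.

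In WT distal crypts of the T/T colony, 5 of the 9 genes were higher after DSS than at baseline, and Spdef rose most. Spdef stood at 6620, 6715 and 5250 normalized counts after DSS against 2167, 2038 and 1911 at baseline, 3.02-fold higher (log2 fold change 1.60, 95% interval 1.27 to 1.92, adjusted p = 0.00693 by limma). Creb3l1 stood at 25253, 26572 and 18986 against 13131, 10625 and 12384 (0.96, adjusted p = 0.0114 by limma), and Foxa3 at 3538, 3429 and 2578 against 1862, 1656 and 1599 (0.89, adjusted p = 0.0127 by limma). Every after-DSS library was above every baseline library for these genes.

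Atoh1 rose by 0.68 on the log2 scale, from 3965 ± 289 to 6407 ± 948 normalized counts (adjusted p = 0.0171 by limma), and Xbp1 by 0.65, from 9918 ± 530 to 15645 ± 2298 (adjusted p = 0.0178 by limma). The other 4 did not pass, with log2 fold changes of 0.56 for Gfi1 (adjusted p = 0.101 by limma), 0.34 for Foxa2, 0.23 for Foxa1 and 0.08 for Klf4. With 3 against 3 libraries the exact permutation p was 0.1 for each non-overlapping gene, the smallest possible. The background was wide: 35.6% of all genes passed, and groups did not overlap for 55.3% of genes against 7 of the 9. Baseline and after-DSS libraries came from different sequencing requests, so treatment and request cannot be told apart. The count of 5 fell to 2 without baseline WT replicate 1 or 3, to 0 without replicate 2, and to 1 and 3 without after-DSS WT replicate 1 and 2, and it rose to 7 without after-DSS WT replicate 3. The share of all genes moved with it, to 5.05%, 9.39% and 0.00739% without baseline replicate 1, 3 and 2, and to 3.78%, 13.4% and 66.9% without after-DSS replicate 1, 2 and 3.

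Other measures moved with DSS in these libraries. The median log2 fold change was 0.165 in the tercile of shortest genes and −0.369 in that of the longest. With the trend on transcript length removed from each library, the same 5 genes passed, while 2072 of the 13566 genes tested rose and 3236 fell. The log2 fold changes of the 5 were then 1.31 for Spdef, 0.71 for Creb3l1, 0.57 for Foxa3, 0.48 for Xbp1 and 0.37 for Atoh1. Stem and cycling markers had a summed level of 494 to 906 CPM at baseline and 95.7 to 173 CPM after DSS, with 2 of 5 past the threshold, and 4 of 10 epithelial, 2 of 8 myeloid and 2 of 4 tested fibroblast markers rose. Of the 282 segment genes, 29, 36 and 10 lay nearer the proximal mean after DSS against 2, 0 and 1 at baseline. Hoxd13 stood at 35.0 to 77.0 CPM after DSS against 81.2 to 92.9 CPM at baseline. The part of these markers and segment genes in the rise of the 5 factors was not tested.

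Fewer genes passed in the WT crypts of the Mtg16-null colony under the same protocol. In a fit over all 42 libraries, 0 of the 9 passed between baseline and after DSS in that colony by limma, with 6.42% of all genes past the threshold, against 5 of 9 and 37.4% of genes in the T/T colony. Spdef changed by 0.55 (adjusted p = 0.18 by limma) on the log2 scale in the first and by 1.53 in the second, and the difference between colonies of 0.98 passed (95% interval 0.27 to 1.69, adjusted p = 0.0474 by limma). Foxa3 changed by 0.10 and 0.82, and that difference, 0.72, passed too (95% interval 0.31 to 1.14, adjusted p = 0.0135 by limma). The difference was 0.75 for Gfi1 (adjusted p = 0.163 by limma), 0.48 for Creb3l1, 0.29 for Atoh1 and 0.25 for Xbp1, none past the threshold. So 2 of 9 differed between colonies where 18.5% of all genes did, and colony and sequencing request cannot be told apart. The trend on transcript length was not removed in this fit, and its part in the colony differences was not tested.

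**Figure D4:**
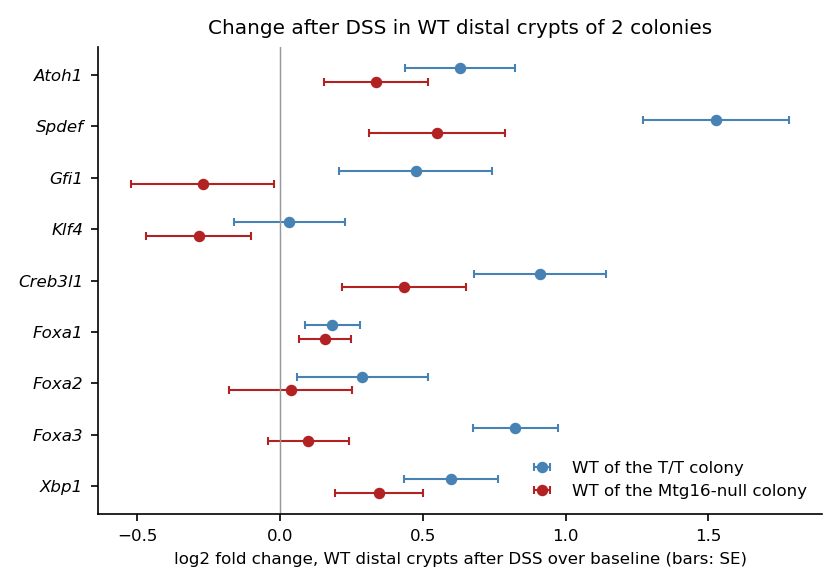
Log2 fold change of each of the 9 genes in WT distal crypts, after DSS over baseline (horizontal axis, log2 of CPM + 1, one fit over 42 libraries), for the T/T colony and the Mtg16-null colony side by side; bars are standard errors. Spdef stands at 1.53 in the T/T colony and 0.55 in the other, and Gfi1 and Klf4 have opposite signs in the colonies.

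Of the goblet effectors, 11 of 17 rose and 1 fell after DSS in the T/T colony WT crypts, where 35.6% of all genes passed in either direction. Spink4 rose by 1.34, Tpsg1 by 1.20 and Capn9 by 1.18 on the log2 scale, while Sytl2, a vesicle-docking protein, fell (−1.67, adjusted p = 0.0396 by limma). Of the unfolded protein response list 10 of 20 rose and 1 fell, with Hyou1 (1.24), Herpud1 (0.89) and Sec61a1 (0.89) up and Hsp90b1 (−1.93) down. The Notch list had 3 of 8 higher, Notch1 (0.75), Lfng (0.70) and Dll4 (0.64), a share near that of all genes. In the enteroendocrine and tuft list 2 of 13 fell, Rfx6 (−1.86) and Isl1 (−1.14). The medians of these lists were 0.78, 0.49, 0.44 and 0.35, against 0.004011 over all genes.

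In AOM/DSS tumors none of the 9 genes differed between T/T and WT past the threshold, and the groups of every member overlapped, while those of 5.52% of all genes did not. Atoh1 stood at 1127, 1158 and 835 normalized counts in T/T against 1714, 866 and 930 in WT tumors. The log2 fold change was −0.11 (95% interval −0.74 to 0.51, adjusted p = 0.998 by limma). The 9 log2 fold changes ran from −0.12 for Foxa2 to 0.33 for Creb3l1. By limma 0 genes of 15900 passed, 0% of those tested, with 392 at an unadjusted p under 0.05 and none of the 9 among them. By edgeR 0 passed, and DESeq2 called 25 genes, none of the 9. The baseline minus tumor effect of T/T on Atoh1 was −0.24 (adjusted p = 0.819 by limma). Of the goblet effectors, the unfolded protein response, Notch and enteroendocrine and tuft lists 0 genes passed, with Fcgbp and Clca1 at log2 fold changes of 1.15 and 1.65.

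Levels across the 14 groups are set side by side in CPM. The tables were scaled separately, so these are descriptions with no test. Per kilobase of exon, Klf4 had the highest median over the 42 libraries, at 198 CPM per kb, followed by Creb3l1 at 104 and Xbp1 at 72.7. Spdef, Foxa1 and Atoh1 followed at 35.1, 30.7 and 30.1 CPM per kb, then Foxa3 at 21.7, Foxa2 at 18.2 and Gfi1 at 3.39. The ratio of the highest to the lowest group mean was 6.27 for Spdef, 6.12 for Atoh1, 5.91 for Creb3l1 and 5.85 for Foxa2. It was 3.72 for Klf4, 2.11 for Foxa3, 2.00 for Gfi1, 1.80 for Xbp1 and 1.53 for Foxa1.

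**Figure D5:**
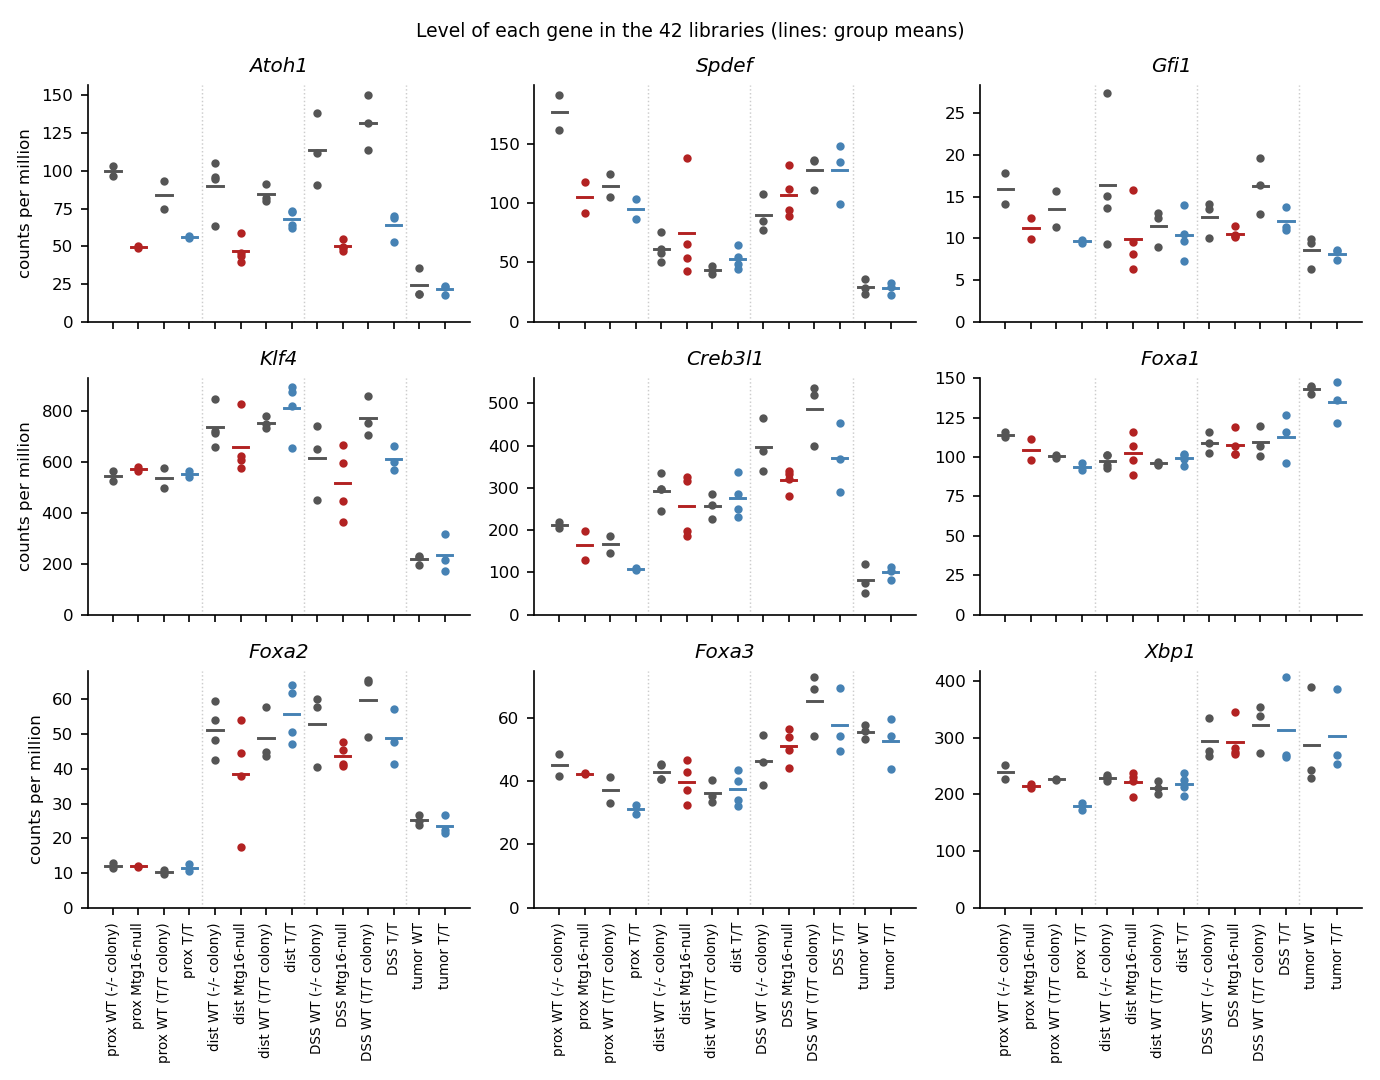
Level of each of the 9 genes in CPM (vertical axes, one panel per gene) in every library of the 14 groups; points are libraries, lines are group means, grey is WT, red Mtg16-null and blue T/T. Atoh1 is highest in WT crypts after DSS and lowest in the tumors, Spdef is highest in proximal WT crypts of the Mtg16-null colony, and Foxa2 is at 9.73 to 12.8 CPM in all proximal libraries.

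Atoh1 was highest in the WT crypts after DSS, at 132 ± 18.3 CPM in the T/T colony and 114 ± 23.8 CPM in the Mtg16-null colony, whose ranges overlapped. Baseline WT groups came next, at 99.9, 90.0, 84.5 and 83.8 CPM, again without a gap between neighbors. The mutant crypt groups followed at 68.0 CPM in distal T/T, 63.9 in T/T after DSS, 56.3 in proximal T/T, 49.9 in Mtg16-null after DSS, 49.2 in proximal and 46.7 in distal Mtg16-null crypts. Every mutant crypt group mean thus lay below every WT crypt group mean, while neighboring mutant groups overlapped in part. The tumors were lowest, at 24.0 ± 9.80 CPM in WT and 21.6 ± 3.45 CPM in T/T.

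Spdef was highest in proximal WT crypts of the Mtg16-null colony, at 176 ± 21.2 CPM, followed by the WT and T/T crypts of the T/T colony after DSS, at 128 ± 14.8 and 127 ± 25.3 CPM. Proximal WT crypts of the T/T colony stood at 115 ± 13.9 CPM, Mtg16-null crypts after DSS at 107 ± 19.4 and proximal Mtg16-null crypts at 105 ± 18.5 CPM, all within one another's spread. Proximal T/T crypts at 95.1 ± 11.7 CPM and the WT crypts of the Mtg16-null colony after DSS at 89.7 ± 15.9 CPM came next. Distal baseline groups stood at 43.5 to 74.8 CPM and tumors at 28.1 and 29.0 CPM. Foxa2 ordered the groups by segment instead: proximal groups had means of 10.2 to 12.1 CPM, tumors of 23.5 and 25.1 CPM, and distal crypt groups of 38.6 to 59.9 CPM. The distal minimum was again Mtg16-null, with replicate 2 at 17.5 CPM.

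Creb3l1 group means were ordered from tumors, at 82.2 and 99.6 CPM, through proximal groups at 109 to 212 CPM, and distal baseline groups at 257 to 293 CPM to distal groups after DSS at 319 to 486 CPM. Klf4 had means of 518 to 810 CPM in crypts and of 217 and 233 CPM in tumors. Foxa1, Foxa3 and Xbp1 were not lower in tumors. Foxa1 was highest there, at 143 ± 2.62 and 135 ± 12.9 CPM, against 93.8 to 114 CPM in the crypt groups, Foxa3 stood at 55.7 and 52.7 CPM within the crypt range of 31.1 to 65.5 CPM, and Xbp1 at 287 and 303 CPM within that of 179 to 322 CPM. Gfi1 had crypt means of 9.64 to 16.4 CPM and tumor means of 8.55 and 8.16 CPM. Tumors were whole tissue. Their fibroblast markers summed to 2634 to 3607 CPM against at most 78.7 CPM in any crypt library, and plasma cell markers, cells in which Xbp1 is highly active, to 598 to 2657 CPM against at most 48.8 CPM. Epithelial markers summed to 11117 to 16922 CPM in tumors and 18005 to 31012 CPM in crypts, and the part of this makeup in the tumor levels was not tested.

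Within groups, some of the factors varied together from library to library. Over the 36 pairs, Pearson r of the deviations from the group mean of log2(CPM + 1) was computed over 42 libraries, with 100000 permutations of libraries within groups and Benjamini-Hochberg adjustment over the 36. With all libraries 6 pairs passed, and without distal Mtg16-null replicate 2 there were 7, so values are given without and with it. Atoh1 and Spdef varied together at r = 0.51 without it (adjusted permutation p = 0.0482) and r = 0.56 with it (adjusted permutation p = 0.0182, Spearman rho 0.54 with adjusted permutation p = 0.0242, r = 0.54 without the 2 farthest libraries). Spdef and Foxa3 did so at r = 0.55 without and 0.58 with it (adjusted permutation p = 0.0238 and 0.0182, rho 0.57 with adjusted permutation p = 0.0211, r = 0.50 without the 2 farthest). Creb3l1 and Xbp1 did so at r = 0.60 and 0.62 (adjusted permutation p = 0.0334 and 0.0195, rho 0.58 with adjusted permutation p = 0.0211, r = 0.51 without the 2 farthest).

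Foxa1 and Xbp1 varied in opposite directions, at r = −0.60 without replicate 2 and −0.61 with it (adjusted permutation p = 0.0218 and 0.0182, rho −0.56 with adjusted permutation p = 0.0211, r = −0.55 without the 2 farthest). Spdef and Creb3l1 rested on the choice of libraries: r was 0.76 without replicate 2 (adjusted permutation p = 0.00036, the smallest these permutations give after adjustment) and 0.32 with it (adjusted permutation p = 0.431), with rho at 0.53 and r at 0.60 without the 2 farthest. Spdef and Xbp1 stood at r = 0.31 with and 0.62 without it, and Atoh1 and Creb3l1 at 0.42 and 0.57. Atoh1 and Gfi1 went the other way, from 0.59 (adjusted permutation p = 0.0232) to 0.53 (adjusted permutation p = 0.0613), with rho at 0.57 and r at 0.54 without the 2 farthest. Spdef and Gfi1 went from 0.56 to 0.39 (adjusted permutation p = 0.0344 and 0.117), with rho at 0.40 and r at 0.36 without the 2 farthest. Split by condition, Spdef and Creb3l1 stood at r = −0.02 over the 23 baseline libraries, replicate 2 included, and 0.84 over the 19 DSS and tumor libraries, and Atoh1 and Creb3l1 at −0.08 and 0.78. Over the 22 baseline libraries without replicate 2 these pairs stood at 0.67 and 0.19. Atoh1 and Spdef stood at 0.65 over baseline libraries (0.49 without replicate 2) and 0.53 over the others, and Foxa1 and Spdef at 0.78 (0.62 without it) and −0.68. Foxa1 and Xbp1 stood at −0.38 over baseline libraries (−0.01 without replicate 2) and −0.72 over the others. Creb3l1 and Xbp1 stood at 0.31 (0.06 without it) and 0.80, and Spdef and Foxa3 at 0.71 (0.68 without it) and 0.46. Libraries of a group share a colony and, outside the distal baseline groups of the Mtg16-null colony, a sequencing request.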

How the data were processed

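Bulk RNA-seq of colon crypts and tumors was analysed from 9 tables with 59 library columns of 42 libraries, each mapped to a group from its labels; 0 columns were left unused. Per the submitters' processing notes and methods, the authors trimmed reads with fastp 0.20.0, quantified them with Salmon 1.3.0 on the mouse genome mm10 (GENCODE vM21) and normalized in DESeq2 1.26.0 under R 3.6.3. The deposited values are a signal in the form of size-factor-normalized counts, not raw counts. Each table was scaled on its own, so tests were run within a table, and levels across tables are given as CPM. Dividing by the smallest step gave whole reads (within 0.02 reads) in 100% of values for 38 libraries, and edgeR 4.0.16 and DESeq2 1.42.0 were run on these reads as alternatives. In the 2 tables of proximal mutants the steps of 3 of 8 columns lay within 1% of 1 and no count test was run there; all 8 columns were whole multiples of their step. The authors' comparison columns (fold changes and p-values) were not used.

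The main test was limma 3.58.1 (R 4.3.3, trend on mean level) on log2(normalized count + 1) for genes with a mean of at least 10, with Benjamini-Hochberg adjustment over all genes of the table and a threshold of 0.05. Single members also had an exact two-sided permutation test (scipy 1.17.1). Fold changes of low genes are understated on this scale. Differences between effects were taken between the separate fits, which were treated as independent. Alternatives were a pseudocount of 0.1, no filter, TMM scaling, a spread shared over 42 libraries, other tools, request as a covariate or within requests, a replicate block, and leaving out each library. Removal of the length trend, the test of the colony difference, and the repeats without distal Mtg16-null replicate 2 of the effect differences, gene lists and correlations were added after seeing the data. The scripts were tested on simulated data.

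Named genes were all 9 members, Cbfa2t3, and, of each context list in a comparison, at most 4 called genes by absolute fold change or, with none called, the most abundant ones, plus up to 3 genes most alike each member; some named by this rule are not reported here. The members and lists were chosen with earlier results of these data known. The main test was unpaired in every comparison, and the replicate block was an alternative. Same-numbered libraries were said to deviate together where every pair of 3 or more correlated above 0.1 in deviations from the group means. This held in Mtg16-null crypts after DSS alone, at 0.554, 0.460 and 0.317, and the labels describe the mice as littermate-matched.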

Additional observations from a re-analysis of the deposited data

Results flagged for a closer look

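Xbp1 stood at 19747 normalized counts in the Mtg16-null library of replicate 1 after DSS, and the other 3 Mtg16-null libraries lay between 14878 and 15612. Its gap to the nearest library, over the range of the group, was 0.849, above Dixon's 95% critical value of 0.829 for 4 libraries. This was the single such value among 36 sets of 4 libraries checked (4 groups for each of the 9 genes), where chance marks about 1 group in 20. The same-numbered WT library was also the highest of its group, at 19136.

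Spdef and Foxa3 changed differently after DSS in the WT crypts of the colonies. The T/T colony minus the Mtg16-null colony was 0.98 on the log2 scale for Spdef (adjusted p = 0.0474 by limma) and 0.72 for Foxa3 (adjusted p = 0.0135 by limma). The test of the difference marked both, and 18.5% of all genes passed it. The trend on transcript length was not removed in that test, and its part was not tested. Colony and sequencing request cannot be told apart.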

How the results depend on the processing

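The counts of members called, of differing effects and of correlated pairs kept within 1.5 times their main value in 113 of 132 repeats. In proximal Mtg16-null crypts a replicate block gave 1 (Atoh1, adjusted p = 0.0172 by limma) in place of 0, and in proximal T/T crypts 1 (Creb3l1, adjusted p = 0.044 by limma), while the share of all genes went from 0.0645% to 0.229% and from 0.232% to 1.10%. These are 2 pairs each that share a number. The replicate block changed no other count of members by over 1.5 times. In distal Mtg16-null crypts a shared spread gave 1, DESeq2 gave 1, and leaving out single libraries gave 0 to 1, with 1 without Mtg16-null replicate 2. The share of all genes was 1.42%, 1.27% and 1.04% in these, against 0.239%. In Mtg16-null crypts after DSS leaving out libraries gave 0 to 1, with 0.194% to 0.732% of all genes. In T/T crypts after DSS a shared spread and DESeq2 each gave 1 in place of 0, with 1.298% and 1.95% of all genes against 0%. Between segments, request as a covariate gave 3 and the single shared request 2, in place of 5. For WT after DSS, the other colony gave 0 and leaving out libraries 0 to 7.

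Of single members, 55 repeats turned sign, 38 lost and 9 gained a call, and 1050 kept both. The main values of those that turned sign did not pass the threshold; the cause was not tested. In distal Mtg16-null crypts Spdef was −0.40 and Foxa1 −0.038 within one request, and Foxa3 0.13 within the other. With the replicate block in distal T/T crypts Foxa1 was −0.016, Foxa3 −0.049 and Xbp1 −0.026. Between segments, with request as a covariate or within one request, Gfi1 was 0.0088 and Foxa3 0.0061. After DSS, Xbp1 in Mtg16-null crypts was −0.0034 with TMM, −0.0013 with a shared spread and −0.020 with the length trend removed. In T/T crypts Spdef was 0.037 with that trend removed, and Foxa1 0.041 both with it removed and with a shared spread. WT Klf4 after DSS was −0.12 with the trend removed, and Gfi1 −0.27 and Klf4 −0.29 in the other colony.

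Leaving out libraries gave −0.047 to 0.011 for Foxa2 in proximal and, in distal Mtg16-null crypts, −0.21 to 0.37 for Spdef and −0.026 to 0.12 for Foxa1. It gave −0.033 to 0.14 for Klf4 in proximal T/T crypts, and in distal T/T crypts −0.023 to 0.13 for Creb3l1, −0.016 to 0.036 for Foxa1, −0.049 to 0.078 for Foxa3 and −0.026 to 0.059 for Xbp1. After DSS it gave −0.041 to 0.0064 for Foxa1 and −0.089 to 0.12 for Xbp1 in Mtg16-null, and −0.25 to 0.071 for Spdef and −0.090 to 0.039 for Foxa1 in T/T crypts. In tumors it gave −0.29 to 0.20 for Atoh1, −0.21 to 0.0999 for Spdef, −0.25 to 0.057 for Gfi1, −0.21 to 0.25 for Klf4, −0.20 to 0.011 for Foxa3 and −0.12 to 0.31 for Xbp1.

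The Atoh1 call in Mtg16-null crypts after DSS held in 11 of 15 repeats (adjusted p from 5.79e-08 to 0.0675 by DESeq2 and limma). Atoh1 was called in 3 of 18 repeats in distal Mtg16-null, 1 of 9 in proximal Mtg16-null and 2 of 14 in T/T crypts after DSS.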

Other observations

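For each of the 9 genes the most alike (up to 3) among 13091 genes were found by Pearson r of deviations from the 14 group means of log2(CPM + 1) over 42 libraries. These are descriptions with no test, over libraries that share requests and length trends. Atoh1 was most like Foxd2 (r = 0.73), Rab4a and Ano7, and Spdef most like Tpsg1 (r = 0.87), Cldn15 and Cgref1. Creb3l1 was most like Atp2a3 (r = 0.91), Prrc1 and Ppif, and Xbp1 most like Edem2 (r = 0.84), Pafah2 and Cd79b. Klf4 was most like Mxd1 (r = 0.84), Parp12 and Tmco3, Gfi1 most like Rgs17 (r = 0.68) and Gm2061, and Foxa3 most like Cox19 (r = 0.82), Ptp4a3 and Bcat2. Foxa1 was most like Arhgef3 (r = 0.86), Dock1 and Cd24a.

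Foxa2 was most like Rab11fip5 (r = 0.84), Cela1 and Zfp775, but without distal Mtg16-null replicate 2 their r was 0.65, 0.58 and 0.58, and they ranked 56, 254 and 256. For the other 8 genes the leading genes ranked between 1 and 16 without that library.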
